A study of Mus musculus with 16 samples.

Results

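Immediate early genes are the genes that cells transcribe first after a stimulus. The 10 followed here were Fos, Fosb, Jun, Junb, Egr1, Ier2, Ier3, Atf3, Zfp36 and Btg2, taken from the table by gene symbol. Each was represented by 1 probe, so they accounted for 10 of the 25697 probes and 10 of the 16593 named genes on the array. They were measured in dorsal skin of 15-day mice of the mixed strain C57/BL6;129Ola, on 16 Illumina bead arrays in 4 groups of 4. The groups were control mice, Shp2lof mice (Krox20-cre with the floxed Shp2 allele), Mek1gof mice (Krox20-cre with Mek1fstop/+) and Double mice, which carried both sets of alleles. The sources used here say neither whether the controls carried Cre nor whether a group's 4 samples came from different animals, so the p-values reflect the spread among these samples, which may be technical. Krox20 (Egr2) is known to be used by Schwann cells and parts of the hair follicle, so the driver reaches only some of the cells in whole skin.

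Transcription of these genes needs no new protein, and their transcripts are short-lived. Shp2, a phosphatase, carries receptor signals to Ras, and Mek1, a kinase, activates ERK, which phosphorylates ternary complex factors such as Elk1. These sit with serum response factor on CArG boxes of immediate early promoters, while CREB acts through cAMP response elements. Several of the products are transcription factors themselves (the AP-1 subunits Fos, Fosb, Jun and Junb, the zinc finger factor Egr1 and the CREB family member Atf3), and Zfp36 shortens the life of AU-rich mRNAs. In skin, wounding is a known inducer of the family.

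RefSeq promoters (GRCm38.p6) were found for 8 of the 10 genes, all but Egr1 and Ier2. The 250 bases before the start are shown for Fos, Junb and Zfp36, the genes whose values the results below turn on. Capitals mark the motif matches named after each set of letters.
Fos (chr12:85473640-85473889, plus strand): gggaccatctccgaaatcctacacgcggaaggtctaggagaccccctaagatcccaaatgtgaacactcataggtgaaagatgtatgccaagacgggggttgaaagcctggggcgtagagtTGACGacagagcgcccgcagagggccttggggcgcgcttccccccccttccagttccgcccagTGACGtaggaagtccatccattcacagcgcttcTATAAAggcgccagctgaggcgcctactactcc
Junb (chr8:84978749-84978998, minus strand): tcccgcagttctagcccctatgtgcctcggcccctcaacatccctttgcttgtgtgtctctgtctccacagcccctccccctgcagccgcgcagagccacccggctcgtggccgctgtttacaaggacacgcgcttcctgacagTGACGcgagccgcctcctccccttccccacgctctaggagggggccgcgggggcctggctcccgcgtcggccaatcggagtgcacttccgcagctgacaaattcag
Zfp36 (chr7:28379229-28379478, minus strand): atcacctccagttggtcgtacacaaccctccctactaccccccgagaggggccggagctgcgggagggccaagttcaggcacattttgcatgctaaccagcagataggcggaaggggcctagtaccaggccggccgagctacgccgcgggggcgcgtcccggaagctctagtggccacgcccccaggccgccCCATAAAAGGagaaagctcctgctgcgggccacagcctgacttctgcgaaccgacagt
In Fos the capitals are TGACG, the first letters of a cAMP response element, at 129 to 125 and at 66 to 62 bases before the start, and a TATAAA at 33 to 28 bases. In Junb they are a TGACG at 106 to 102 bases, and in Zfp36 a CArG box at 58 to 49 bases before the start. TGACG on either strand was found in 5 of the 8 promoters (Fos, Fosb, Junb, Atf3 and Btg2) and in 17.8% of 32851 RefSeq promoter windows of the same length. The whole palindrome TGACGTCA, which overlaps TGACG, was found in 1 of the 8, Btg2, against 1.55% of all windows. A CArG box was found in 1 of the 8 against 1.47%, and TATAAA on either strand in 1 against 12.4%. GGAA, the core of ETS factor sites such as those of Elk1, was found in 8 of the 8 and in 93.4% of all windows. These matches describe the letters of the window only. Sites farther upstream, CArG boxes among them, were not searched for, so a promoter without a match here may hold one there.

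The median signal per array was between 71.33 and 95.88, and between 13022 and 13959 probes were detected. Skin markers were present: Krt14, Krt5, Krt10 and Col1a1 were detected on 16 of 16 arrays. Slide 1 held replicates 1 and 2 of every group, and slide 2 held replicates 3 and 4. Within a slide each group kept the same positions, so position and group cannot be told apart. On 3 arrays the sex-linked transcripts were atypical: Shp2lof replicate 4 held both Xist (9.12 on the log2 scale) and Eif2s3y (8.01), Mek1gof replicate 2 held both (8.82 and 6.77), and Double replicate 4 had an intermediate Xist level (6.96) with Eif2s3y at 4.39. Several results that rest on these arrays are given with and without them. For others, such as Junb and Egr1 in Double against control and the Ier3 interaction, only the range over the alternatives is given. Eif2s3y was above 10 on 2 control, 3 Shp2lof, 2 Mek1gof and 1 Double arrays, so the sexes were not balanced across groups.

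Fos, Jun, Junb, Egr1, Ier3 and Zfp36 were detected above background (detection p below 0.05) on 16 of 16 arrays. Fosb was detected on 11, Atf3 on 9 and Ier2 on 5. Btg2, an antiproliferative gene, was not detected on any of the 16 arrays, with signals of 52.1 to 72.7, and was left out of the tests. The other 9 were tested among 10232 genes. All levels below are background-corrected, quantile-normalized log2 signals, and levels of different probes cannot be set against each other.

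No immediate early gene passed the threshold in any of the 6 comparisons (limma, p adjusted by Benjamini-Hochberg over the whole table, limit 0.05). The count was 0 of 9 in Shp2lof against control, where 2.55% of all genes passed, 0 of 9 in Mek1gof against control (0.508%) and 0 of 9 in Double against control (3.88%). It was also 0 of 9 in Double against Shp2lof (0.968%), in Double against Mek1gof (0.283%) and in the factorial interaction (0.088%), which is the Shp2lof difference with the Mek1gof allele minus that without it. At an unadjusted p below 0.05 the counts were 2, 0, 2, 4, 1 and 2 in the same order, beside 15.7%, 9.54%, 20.8%, 12.8%, 9.85% and 7.17% of all genes. These were Fos and Zfp36 in Shp2lof against control, Junb and Egr1 in Double against control, and Junb, Egr1, Ier3 and Zfp36 in Double against Shp2lof. Zfp36 also lay below 0.05 in Double against Mek1gof, and Ier3 and Zfp36 in the interaction. The comparisons share arrays, so these counts are not independent of each other.

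**Figure D1:**
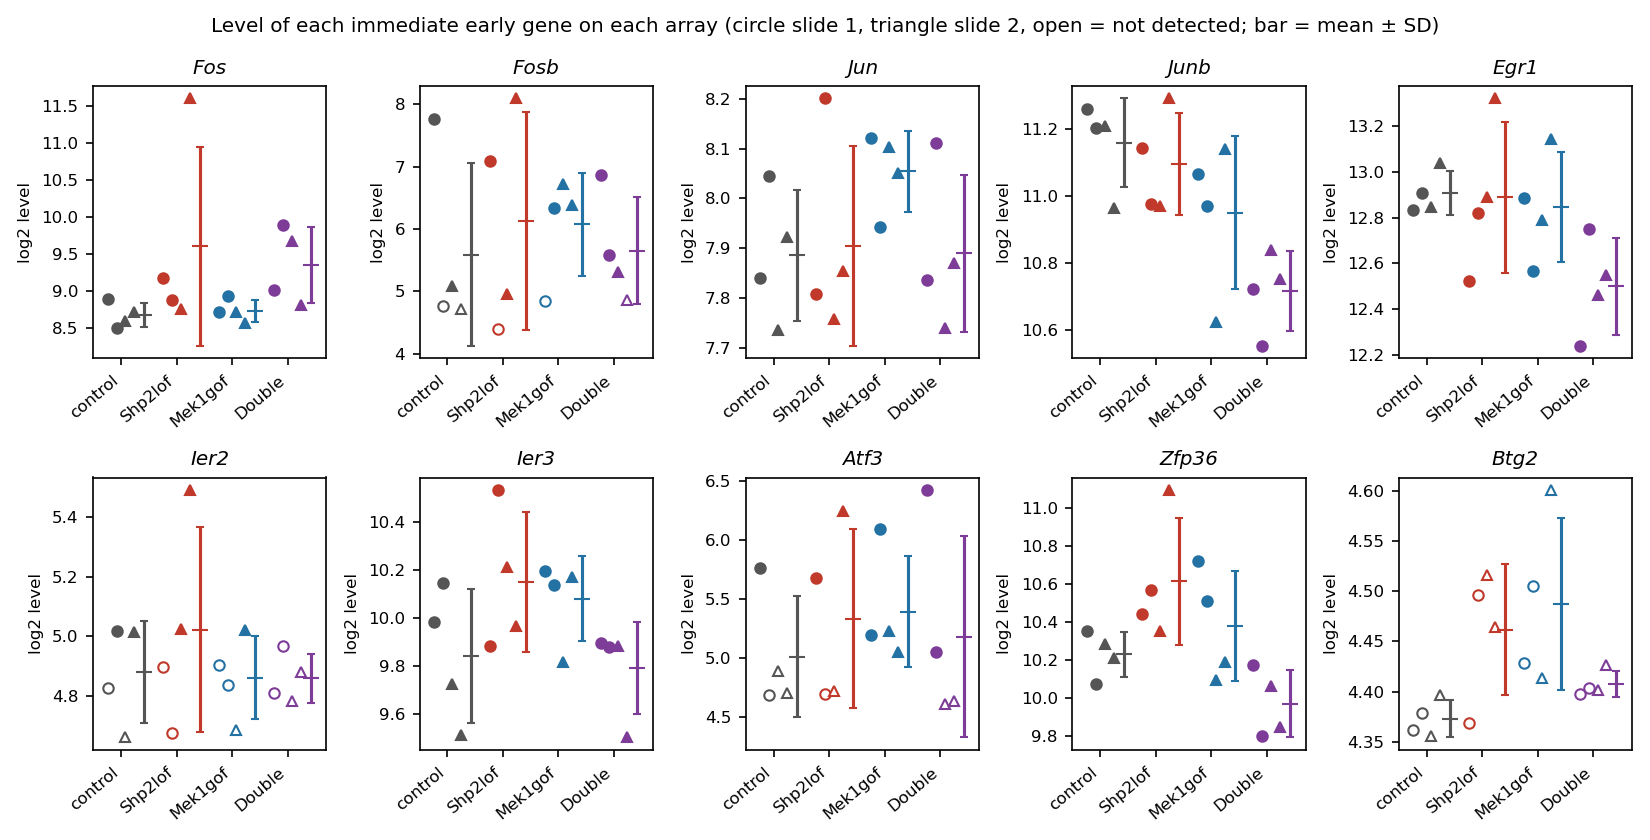
Level of each immediate early gene on each array (log2 signal, vertical axis, scaled for each gene) in the 4 groups; circles are slide 1, triangles slide 2, open symbols arrays without detection, and bars the mean ± SD of 4 arrays. Fos reads 11.60 on Shp2lof replicate 4 against 8.75 to 9.17 on the other Shp2lof arrays, and the 4 Double arrays lie below the 4 control arrays for Junb and Egr1.

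The Fos family subunits of AP-1 had the widest spread between arrays of the 9 genes. Fos was at 8.89, 8.50, 8.59 and 8.71 on the control arrays, and at 9.17, 8.87, 8.75 and 11.60 on the Shp2lof arrays (replicates 1 to 4). It was at 8.70, 8.93, 8.71 and 8.56 on the Mek1gof arrays and at 9.01, 9.88, 9.67 and 8.81 on the Double arrays. A single array, Shp2lof replicate 4, stood far above all the others, while 3 of 4 Double arrays lay above every control array and the fourth within the control range. Control skin had a mean of 8.67 ± 0.168, Shp2lof 9.60 ± 1.35, Mek1gof 8.73 ± 0.152 and Double 9.34 ± 0.516 (SD, n = 4). The Shp2lof minus control difference was 0.93 (95% CI 0.01 to 1.84, adjusted p = 0.309, limma), and it was 0.26 (adjusted p = 0.645) without Shp2lof replicate 4. The Double minus control difference was 0.67 (95% CI -0.24 to 1.59, adjusted p = 0.396), or 0.75 on slide 1 and 0.59 on slide 2. Without the 3 atypical arrays this difference was 0.85 and passed the threshold (adjusted p = 0.0285); of these arrays only Double replicate 4 belongs to the groups compared, and the others enter through the shared spread. Without Shp2lof replicate 4 alone it was 0.67 (adjusted p = 0.0731), and without Double replicate 4 alone 0.85 (adjusted p = 0.325).

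Shp2lof replicate 4 deviated from its group mean by 2.00 for Fos, and only 4 of 10232 genes deviated further on that array. Fosb (8.09), Ier2 (5.49), Junb (11.29), Egr1 (13.32) and Zfp36 (11.09) were also at the highest level of the 16 arrays on it. Atf3 (6.25) was there at the highest level of the Shp2lof group, below Double replicate 1 (6.43). Jun (7.85) and Ier3 (9.97) were within the range of the other Shp2lof arrays. Markers of other cells also set this array apart from the other Shp2lof arrays. The levels of the tested genes of a list were summed on the linear scale. Sums are given as log2 values, and the brightest genes weigh most in them. These sums were higher on it for neutrophil (3 of 7 tested, 13.32 against 12.59 to 12.92), erythroid (4 of 7, 14.15 against 13.46 to 13.64) and adipocyte markers (6 of 7, above the others' 12.11 to 12.61). They were lower on it for hair shaft (6 of 8; 16.12 against 16.30 to 16.32), suprabasal (5 of 7; 15.55 against 15.75 to 15.80), endothelial (6 of 7; 9.14 against 9.26 to 9.28) and, by little, muscle markers (8 of 8; 15.32 against 15.34 to 15.50). The neutrophil sum held only S100a8, S100a9 and Mmp9. The neutrophil markers Csf3r, Cxcr2, Mmp8 and Retnlg were detected on 3, 0, 0 and 1 of 16 arrays and were not tested. The macrophage sum (5 of 8 tested), at 11.36, was within the others' range of 10.30 to 11.51. The part of these markers in the Fos level was not tested.

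Fosb, the close relative of Fos, was near the background on many arrays. The control arrays read 7.77, 4.78, 5.09 and 4.72, and the Shp2lof arrays 7.09, 4.40, 4.95 and 8.09. The Mek1gof arrays read 4.85, 6.34, 6.71 and 6.39, and the Double arrays 6.86, 5.58, 5.32 and 4.86. Each group held arrays with and without detection, and the groups overlapped throughout. The differences from control were 0.55, 0.48 and 0.07 for Shp2lof, Mek1gof and Double (adjusted p = 0.785, 0.91 and 0.973), with a standard error of 0.754 each. Without Shp2lof replicate 4 the Shp2lof difference was -0.11 (adjusted p = 0.969), so its sign turned.

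Among the Jun subunits, Junb was lower in Double skin than on any control array. Junb, which pairs with Fos proteins and is known to restrain epidermal growth, was at 11.26, 11.20, 11.21 and 10.96 in control and at 10.72, 10.55, 10.84 and 10.75 in Double skin. The Shp2lof arrays (11.14, 10.97, 10.97 and 11.29) and the Mek1gof arrays (11.07, 10.97, 10.62 and 11.14) overlapped with control. The 4 Double arrays thus lay below the 4 control arrays and below the 4 Shp2lof arrays, but not below the Mek1gof arrays. Of the 9 genes, Junb and Egr1 were lower without overlap in Double than in control, beside 4.76% of all genes, and Junb and Zfp36 lower without overlap in Double than in Shp2lof, beside 3.33%. The Junb difference between Double and control was -0.44 ± 0.134 (SE; 95% CI -0.72 to -0.16, 1.36-fold), the smallest adjusted p of any immediate early gene (0.071, limma). It was -0.59 on slide 1 and -0.29 on slide 2, the extremes over the alternatives run, which include the fit without Double replicate 4. It passed with an offset of 50 in the normalization (-0.43, adjusted p = 0.045), and had an adjusted p of 0.177 without Double replicate 2 (-0.39).

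Jun itself, the founding AP-1 subunit, had the smallest standard error of the 9 genes (0.128 for each difference). Its mean was 7.89 ± 0.131 in control skin, and it was 7.91 ± 0.201 with the Shp2 allele, 8.05 ± 0.0804 with the Mek1 allele and 7.89 ± 0.158 with both (SD, n = 4). The Double minus control difference was 0.00 (95% CI -0.26 to 0.27), and the Mek1gof minus control difference 0.17 (95% CI -0.10 to 0.44, adjusted p = 0.735).

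Egr1, a zinc finger factor that reads ERK activity in many cells, was at 12.83, 12.91, 12.85 and 13.04 in control and at 12.24, 12.75, 12.46 and 12.55 in Double skin. It was at 12.52, 12.82, 12.89 and 13.32 in Shp2lof and at 12.88, 12.57, 12.79 and 13.14 in Mek1gof skin. All 4 Double arrays were below all control arrays, while both single mutants overlapped with control and with Double. The Double minus control difference was -0.41 ± 0.165 (SE; 95% CI -0.75 to -0.06, adjusted p = 0.171), -0.38 on slide 1 and -0.44 on slide 2. Over the alternatives run, the fit without Double replicate 4 among them, the Double minus control difference was -0.60 to -0.32. Shp2lof and Mek1gof differed from control by -0.02 and -0.06 (adjusted p = 0.979 and 0.958), with intervals of -0.37 to 0.33 and -0.41 to 0.29.

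Skeletal muscle markers moved in the same comparison. Of 8 muscle genes tested 6 fell in Double against control (median -1.35 over the 8). The log2 of the summed levels of the 8 was 13.94 to 15.40 on the Double arrays against 15.31 to 15.95 on the control arrays. The sums of the 7 basal keratinocyte markers were 15.32 to 15.70 in Double and 15.51 to 15.74 in control skin. Those of the suprabasal markers (5 of 7 tested) were 14.82 to 15.72 and 15.28 to 15.57, with 0 of 7 and 0 of 5 past the threshold. The median Double minus control difference was -0.38 for the basal genes (6 of 7 negative) and -0.24 for the suprabasal genes (4 of 5 negative), against 0.03 over all genes. Double replicate 4, one of the atypical arrays, had a muscle sum of 15.40, within the control range, and the lowest suprabasal sum of the 16 arrays (14.82), with Junb at 10.75 and Egr1 at 12.55. The part of these markers in the Junb and Egr1 levels was not tested. In whole skin, fewer cells of a type and less RNA per cell cannot be told apart.

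Zfp36, which encodes the mRNA-destabilizing protein tristetraprolin, gave the widest contrast between Shp2lof and Double skin among the 6 genes detected on every array. Its level was 10.35, 10.08, 10.28 and 10.21 on the control arrays, and 10.44, 10.57, 10.35 and 11.09 on those of Shp2lof. On the Mek1gof arrays it was 10.72, 10.51, 10.10 and 10.19, and on the Double arrays 10.17, 9.80, 10.07 and 9.85. All 4 Double arrays were below all Shp2lof arrays and overlapped with control. The Double minus Shp2lof difference was -0.64 ± 0.170 (SE, 1.56-fold, adjusted p = 0.0789, limma), -0.52 on slide 1 and -0.77 on slide 2. Without Shp2lof replicate 4 it was -0.48 (adjusted p = 0.172). The factorial interaction of Zfp36 was -0.79 (95% CI -1.30 to -0.28, adjusted p = 0.425): without the Mek1 allele, Shp2lof minus control was 0.38 (adjusted p = 0.277), and with it, Double minus Mek1gof was -0.41 (adjusted p = 0.425). Leaving out Shp2lof replicate 4 brought the difference without the Mek1 allele to 0.22 (adjusted p = 0.568) and the interaction to -0.63 (adjusted p = 0.472).

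Ier3, an early response gene that acts on ERK signalling and cell survival, had the other interaction with an unadjusted p below 0.05. Control arrays were at 9.98, 10.15, 9.73 and 9.51, and Shp2lof arrays at 9.88, 10.53, 10.21 and 9.97. Mek1gof arrays were at 10.20, 10.14, 9.81 and 10.17, and Double arrays at 9.90, 9.88, 9.88 and 9.50. The groups overlapped in every pair. Shp2lof and Mek1gof means were 0.31 and 0.24 above control (adjusted p = 0.395 and 0.709), and the Double mean differed from control by -0.05 (adjusted p = 0.90, limma). The interaction was -0.60 (95% CI -1.10 to -0.10, adjusted p = 0.597, limma). Over the alternatives run, the fit without Double replicate 4 among them, it was -0.77 to -0.42.

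Atf3, a stress-induced CREB family factor, was detected on 1 control, 2 Shp2lof, 4 Mek1gof and 2 Double arrays. It read 5.76, 4.69, 4.89 and 4.70 in control and 5.20, 6.09, 5.23 and 5.05 in Mek1gof skin. It read 5.67, 4.70, 4.72 and 6.25 in Shp2lof and 6.43, 5.05, 4.61 and 4.63 in Double skin. Within control, Shp2lof and Double the replicate 1 array was among those with detection, and the groups overlapped; the Mek1gof minus control difference was 0.38 (95% CI -0.46 to 1.22, adjusted p = 0.835), and 0.15 (adjusted p = 0.959) without Mek1gof replicate 2. Ier2, another early response gene, was not well above background on any Double array and was detected on 2 control, 2 Shp2lof and 1 Mek1gof arrays, at log2 levels of 4.66 to 5.49 over the 16 arrays. Its Double minus Shp2lof difference had an adjusted p of 0.739, and no fold is given for it.

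**Figure D2:**
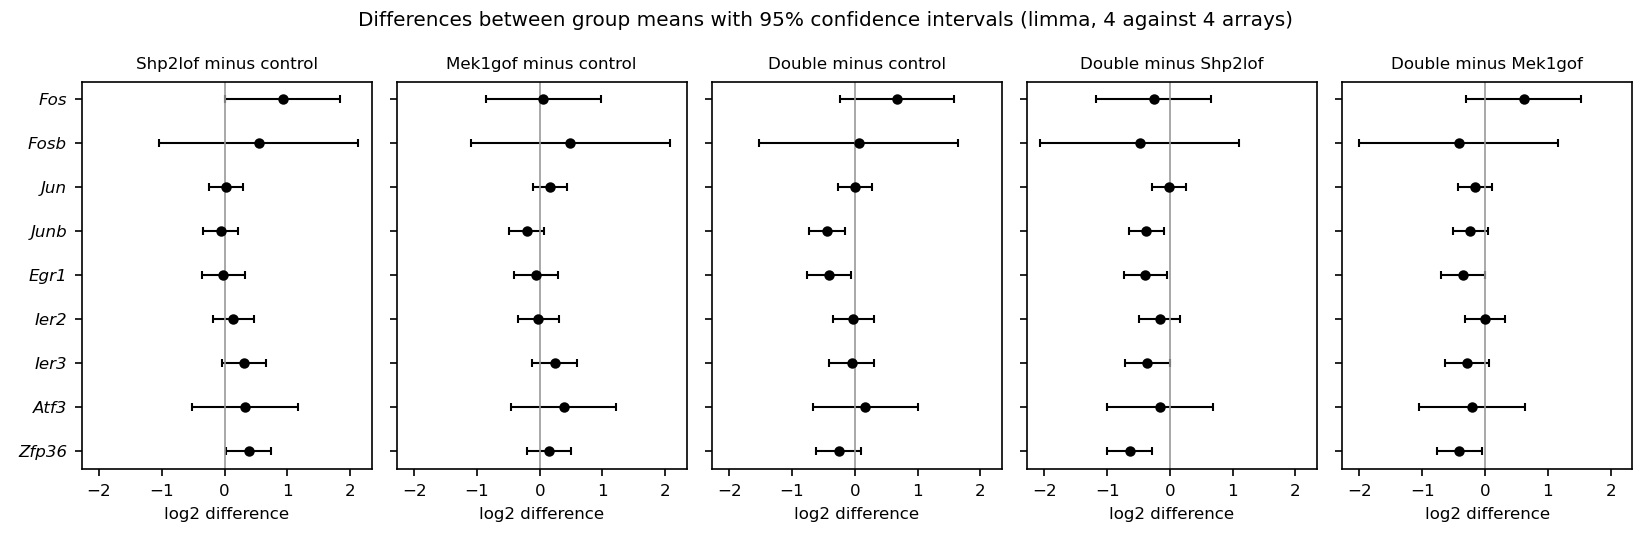
Difference between group means (log2, horizontal axis) with 95% confidence intervals for the 9 tested immediate early genes in 5 comparisons of 4 against 4 arrays. In Double minus Shp2lof all 9 points lie below 0, with Zfp36 at -0.64 and Junb at -0.38, and in Double minus control Junb (-0.44) and Egr1 (-0.41) lie below 0.

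The signs of the differences were uneven in the comparisons that hold Double and Shp2lof skin. The Double minus Shp2lof difference was negative for 9 of 9 genes (median -0.36, against 0.01 over all genes tested, of which 48.6% were negative). The interaction, which includes those arrays, was negative for 9 of 9 as well (median -0.33; 52.1% of all genes), and Double minus Mek1gof for 8 of 9, the exception being Fos (median -0.23; 48.3% of all genes). Shp2lof minus control was positive for 7 of 9 (median 0.31), all but Junb and Egr1. These counts take in values close to 0, such as Ier2 at -0.002 in Double minus Mek1gof and Jun at -0.02 in Double minus Shp2lof. They also take in Fosb, Atf3 and Ier2, which were near background on many arrays. The counts rested in part on 1 array and 1 slide. Without Shp2lof replicate 4, Double minus Shp2lof was negative for 6 of 9 (median -0.03), the interaction for 7 of 9 and Shp2lof minus control positive for 5 of 9 (median 0.02). On slide 1 alone Double minus Shp2lof was negative for 5 of 9 and on slide 2 alone for 9 of 9; Fos, Fosb, Ier2 and Atf3 were the positive ones on slide 1. The interaction (median -0.03) and Double minus Mek1gof (median -0.06) were likewise negative for 5 of 9 on slide 1 alone.

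Whether the genes moved together between arrays of a group was asked with deviations from the group means. None of the 8 genes paired with Fos passed over the 8 pairs (Pearson or Spearman, two-sided permutation within groups, Benjamini-Hochberg adjusted, n = 16 arrays), and 0 had an unadjusted permutation p below 0.05. The median r with Fos was 0.51, and 0.07 without Shp2lof replicate 4. The highest was Fos with Ier2 (r = 0.68, rho = 0.27, p = 0.137 and 0.355, adjusted p = 0.311 and 0.544), at r = 0.21 without the 2 arrays farthest from the median of Fos and at 0.32 and 0.61 within slides 1 and 2. Fos with Zfp36 gave r = 0.62 (rho = 0.40, p = 0.0979 and 0.147, adjusted p = 0.311 and 0.466), r = 0.48 without the 2 farthest arrays, and -0.56 and 0.98 on the slides, so its sign was not the same on both.

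Over all 36 pairs of the 9 genes, a set added after the data were seen, 23 were positive and 0 passed, with 3 by Pearson and 2 by Spearman at an unadjusted permutation p below 0.05. The pair with the highest r was Fosb with Atf3, at r = 0.83 and rho = 0.77 (permutation p = 0.00161 and 0.0049, adjusted p over 36 pairs = 0.058 and 0.0882). It was 0.75 without the 2 arrays farthest from the median of Fosb, 0.78 without Shp2lof replicate 4, and 0.91 and 0.99 within slides 1 and 2. Both genes were above background on only some arrays, and control replicate 1, Shp2lof replicates 1 and 4 and Double replicate 1 were high for both. Egr1 with Ier2 followed (r = 0.71, rho = 0.77, permutation p = 0.0202 and 0.00269, adjusted p = 0.363 and 0.0882). It was 0.57 without the 2 farthest arrays and 0.21 and 0.97 within the slides.

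**Figure D3:**
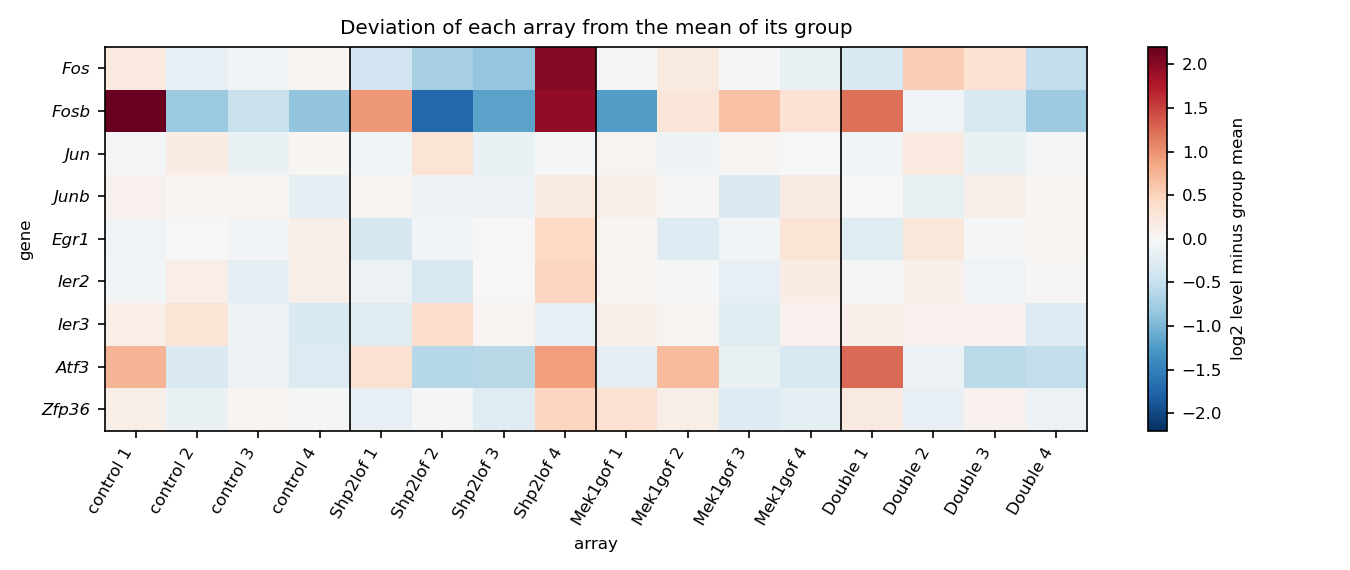
Deviation of each array (columns, 4 per group) from the mean of its group for the 9 tested immediate early genes (rows), on a log2 colour scale from blue (below the mean) to red (above). Shp2lof replicate 4 is above its group mean for Fos (2.00) and most other genes. Fosb and Atf3 are both raised on some arrays, control replicate 1, Shp2lof replicates 1 and 4 and Double replicate 1 among them. They part on Mek1gof replicate 3 (0.64 and -0.16) and Mek1gof replicate 4 (0.32 and -0.34).

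The other genes most like the immediate early genes across arrays were ranked by the correlation, over the 16 arrays, of their deviations with the mean standardised deviation of the 9 genes. They were Samd14 (r = 0.87), Has1, a hyaluronan synthase (0.85), Socs3, an inhibitor of cytokine signalling (0.83), Ch25h, a cholesterol hydroxylase (0.82), Ppp1r35 (0.81), Errfi1, a feedback inhibitor of the EGF receptor (0.81), Akap7 (0.79) and Cxcl1, a neutrophil chemokine (0.78). These were picked as the highest of all genes tested, and no test is given. Has1 and Ch25h were detected on only 6 of 16 arrays, so their other readings were at background. Socs3 and Errfi1 are also among the further primary response genes followed below. Each of the 8 was at its highest on Shp2lof replicate 4, and without that array the correlations were 0.39 to 0.60. Socs3, for example, was at 9.34 there against 7.34 to 8.24 on the other 15 arrays, and Cxcl1 at 8.21 against 4.74 to 7.30.

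The wider primary response did pass the threshold at single genes. Of 40 further primary response genes written down, 37 had a probe and 32 were tested. In Shp2lof against control 1 rose, 2 fell and 29 did not pass (median 0.02, as over all genes), beside 1.51% and 1.05% of all genes that rose and fell. In Mek1gof against control 1 fell and 31 did not pass (median -0.12; 0.166% of all genes fell). In Double against control 1 rose, 3 fell and 28 did not pass (median -0.16, against 0.03 over all genes), beside 1.84% and 2.04% of all genes. In Double against Mek1gof 1 fell and 31 did not pass (median -0.05; 0.108% of all genes fell). None passed by limma in Double against Shp2lof (median -0.15) or in the interaction (median -0.05). At an unadjusted p below 0.05 (limma) the counts there were 2 and 4 of 32, beside 12.8% and 7.17% of all genes. They were 7, 4 and 9 of 32 in Shp2lof, Mek1gof and Double against control, beside 15.7%, 9.54% and 20.8%. In Double against Mek1gof the count was 6 of 32, beside 9.85%.

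Markers of other skin cells also differed between these groups. All 4 Shp2lof arrays were below all control arrays in the summed levels of fibroblast (7 of 7 tested; 14.25 to 14.84 against 15.07 to 15.45), hair shaft (6 of 8; 16.12 to 16.32 against 16.45 to 16.61) and Schwann cell markers (4 of 8; 10.37 to 11.16 against 11.39 to 11.70). Among the fibroblast genes 2 of 7 fell, the collagen genes Col1a1 and Col1a2. In Mek1gof and Double skin these 3 sums overlapped with control, and the muscle sums were 14.68 to 15.64 and 13.94 to 15.40 against 15.31 to 15.95. The part of these markers in the changes of Klf6, Dusp2, Ccn2, Per1 and Hspb1 was not tested.

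Klf6, a Krüppel-like factor, fell in each mutant group. On the control arrays it was at 10.98, 11.03, 10.92 and 10.41, and on the Shp2lof arrays at 10.23, 10.04, 10.33 and 10.34. It lay between 9.87 and 10.10 on the Mek1gof arrays and between 9.67 and 10.17 on the Double arrays, and no mutant array was inside the control range. Relative to control it changed by -0.60 in Shp2lof (adjusted p = 0.044), by -0.86 in Mek1gof (adjusted p = 0.0135) and by -0.80 in Double skin (adjusted p = 0.00938, limma), and a second Klf6 probe gave -0.69, -0.64 and -0.79. The Shp2lof call ended when any 1 of control replicates 1 to 3, of the 4 Shp2lof arrays, of Mek1gof replicates 2 to 4 or Double replicate 3 was left out (-0.53 to -0.63, adjusted p = 0.0506 to 0.154). The Mek1gof call ended without control replicate 2 (adjusted p = 0.0699), control replicate 3 (0.0564) or Mek1gof replicate 4 (0.0554).

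Dusp2, a nuclear phosphatase of ERK and other MAP kinases, fell wherever the Shp2 allele was present. It was at 10.54, 10.49, 10.32 and 10.21 in control and 10.67, 10.45, 10.22 and 10.21 in Mek1gof skin. It was at 9.51, 9.36, 9.42 and 9.12 in Shp2lof and 9.06, 9.45, 9.92 and 9.74 in Double skin, below every array of the other pair of groups. The Shp2lof minus control difference was -1.03 (95% CI -1.39 to -0.68, adjusted p = 0.0024), which passed in each of the alternatives run. Double minus control was -0.84 (adjusted p = 0.0117), -1.25 on slide 1 and -0.43 on slide 2. Mek1gof minus control was 0.00 (95% CI -0.36 to 0.36), where a second Dusp2 probe read -0.40 (and -1.21 and -1.26 in Shp2lof and Double). Double minus Mek1gof was -0.84 (adjusted p = 0.0415), a call lost in 23 of 31 alternatives, among them without any 1 of the control or Shp2lof arrays, Mek1gof replicates 1, 2 and 4 or Double replicates 1, 2 and 4 (-0.68 to -0.91, adjusted p = 0.0505 to 0.158).

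Ccn2 (CTGF), a matrix-associated growth regulator, rose in both groups with the Shp2 allele. Control arrays were at 11.93, 11.97, 12.04 and 11.74 and Mek1gof arrays at 12.34, 11.86, 11.91 and 11.87. Shp2lof arrays were at 12.52, 12.63, 12.63 and 12.46 and Double arrays at 12.77, 12.54, 12.49 and 12.21. All Shp2lof and Double arrays were above all control arrays. The differences were 0.64 (adjusted p = 0.0188) for Shp2lof and 0.58 (adjusted p = 0.0275) for Double. The first was lost without control replicate 4 (adjusted p = 0.0616) or Shp2lof replicate 2 (0.0638), and the second without any 1 of the control arrays or Double replicates 1 to 3 (0.49 to 0.62, adjusted p = 0.0542 to 0.0689).

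Per1, a clock gene that stimuli also induce at once, fell in Double skin. It was at 10.04, 10.06, 9.85 and 9.59 in control and at 9.70, 9.27, 8.84 and 8.71 in Double skin, where Double replicate 1 lay within the control range. The difference was -0.76 (adjusted p = 0.0332), and a second Per1 probe gave -0.79. The call was lost without control replicates 1, 2 or 3 or Double replicates 2, 3 or 4 (-0.62 to -0.80, adjusted p = 0.0581 to 0.104). Against Shp2lof the difference was -0.75 (adjusted p = 0.0667).

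**Figure D4:**
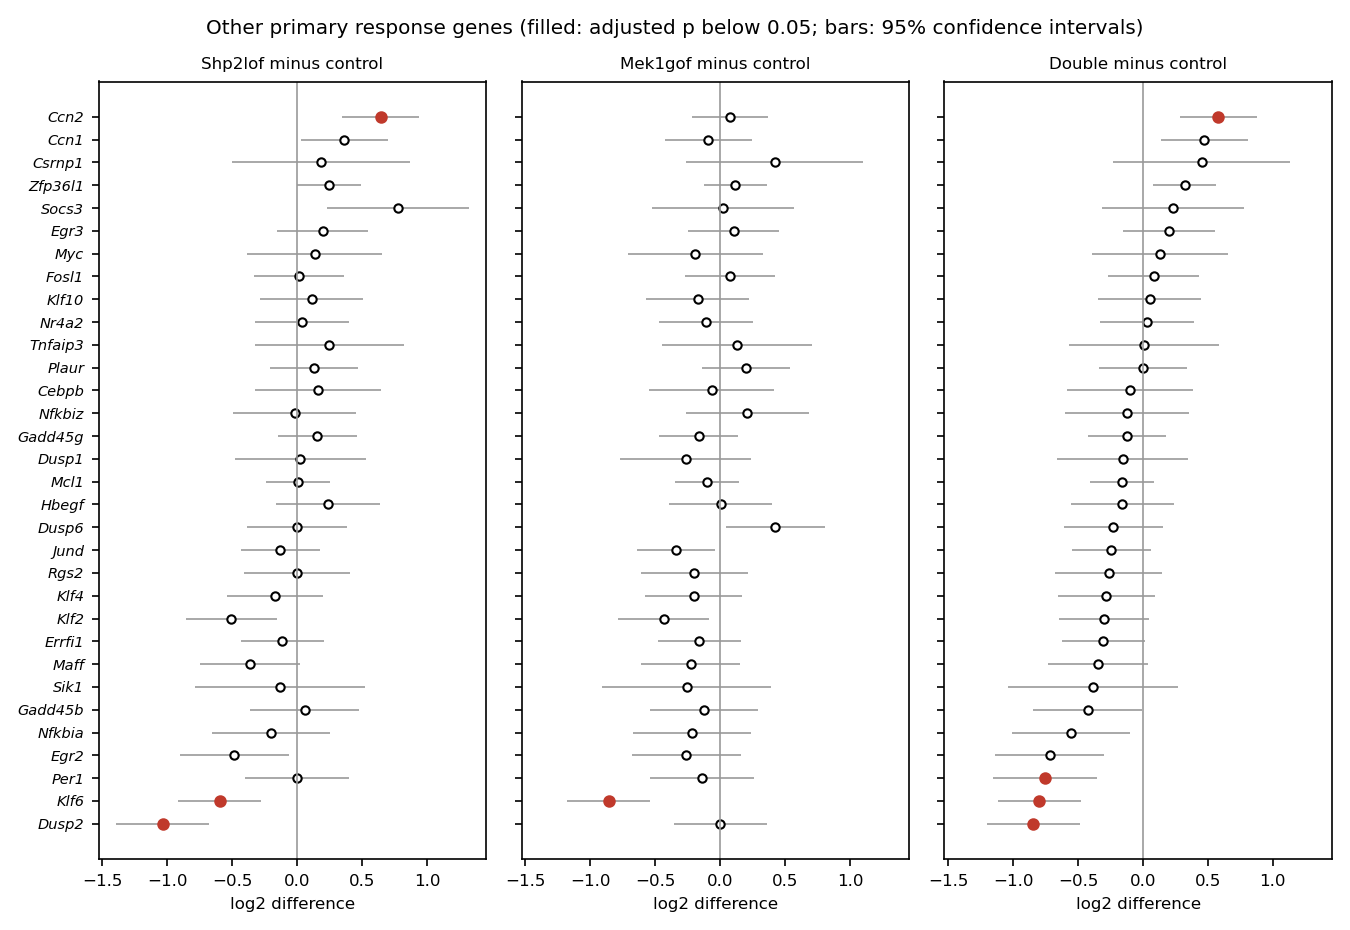
Difference from control (log2, horizontal axis) with 95% confidence intervals for the 32 tested further primary response genes (rows, ordered by the Double difference) in Shp2lof, Mek1gof and Double skin; filled red points have an adjusted p below 0.05. Klf6 is filled in all 3 panels, Dusp2 and Ccn2 in the Shp2lof and Double panels, and Per1 in the Double panel.

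Of 18 transcription factors and kinases that act upstream of immediate early genes, 12 had a probe and 11 were tested, and 0 passed in any comparison by limma (1 to 3 of 11 at an unadjusted p below 0.05 in each, beside 7.17% to 20.8% of all genes). The 2 with the smallest p in Double against control were Ets2, an ERK-regulated ETS factor (-0.44, adjusted p = 0.0769), and Mapk8, which encodes the kinase JNK1 (-0.47, adjusted p = 0.0946). In Shp2lof against control Srf, serum response factor itself, differed by 0.29 (adjusted p = 0.287). Of 11 heat shock genes, read as a sign of tissue stress, 10 had a probe and 9 were tested, and 1 passed, in Double against control, where 3.88% of all genes passed and 2.04% fell. It was Hspb1, a small heat shock protein, which fell: 11.41, 11.56, 11.12 and 10.88 in control and 10.11, 9.35, 10.82 and 10.49 in Double skin (-1.05, adjusted p = 0.0209). Muscle sums, in the same order, were 15.66, 15.95, 15.86 and 15.31 on the control arrays and 14.17, 13.94, 14.65 and 15.40 on the Double arrays. The part of muscle in the Hspb1 level was not tested. The Hspb1 difference was -1.76 on slide 1 and -0.35 on slide 2, and it did not pass on slide 2 alone (adjusted p = 0.375, limma). The call was also lost without control replicate 1 (adjusted p = 0.0561), control replicate 2 (0.0781), control replicate 3 (0.0509) or Double replicate 2 (-0.77, adjusted p = 0.0541).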

How the data were processed

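Total RNA was labelled with biotin and hybridized to Illumina mouse bead arrays, per the labels. The deposited table gives an intensity (mean bead signal, linear scale) and a detection p-value for each of 25697 probes, exported with GenomeStudio per the submitters' processing notes. A further table repeats these deposited intensity values to within 0.05 and was used as an alternative.

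Background correction and quantile normalization to log2 values used neqc (offset 16) in limma 3.58.1 (R 4.3.3). The offset shrinks differences near background. Probes with detection p below 0.05 on at least 4 arrays were kept (14631), and the probe with the highest mean stood for a gene, leaving 10232 genes. All 16 arrays entered 1 limma model of 4 group means (12 residual degrees of freedom, 5.74 from the prior), adjusted over all genes by Benjamini-Hochberg. Correlations used 100000 permutations within groups. Alternatives covered normalization, filters, probe choice, blocks, slides and left-out arrays.

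The genes, lists and tests were chosen with earlier results of these data known. Named besides the 10 genes were list members past the threshold in any comparison, otherwise at most the 2 with the smallest p per list and comparison, and the 8 genes most correlated with the 10. On data simulated for Shp2lof against control (10232 genes), 18 of 100 genes changed by 0.5, 45 of 50 changed by 1 and 50 of 50 changed by 2 on the log2 scale were recovered, with 11 false calls of 124. The simulated noise was normal and independent for each gene and array, without slide effects or outlying arrays. The rates may therefore not hold for genes with such arrays, as Fos has. The number of arrays limits the precision. Figures used matplotlib 3.10.9 (Python 3.11.15).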

Additional observations from a re-analysis of the deposited data

Results flagged for a closer look

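In 7 of 60 groups of 4 arrays (11.7%) an array stood apart from the other 3 by more than Dixon's 95% critical value of 0.829. Normally distributed values give about 1 in 20. The groups were those of the immediate early genes and of list genes named because they passed the threshold in these data. The share over all genes tested was not taken, so the count is not a result about these genes. Fos was at 11.60 on Shp2lof replicate 4 against 8.75 to 9.17 on the other Shp2lof arrays. Fosb was at 7.77 on control replicate 1 against 4.72 to 5.09. Atf3 was at 6.09 on Mek1gof replicate 2 against 5.06 to 5.23. Ier3 was low on Mek1gof replicate 3, at 9.81 against 10.14 to 10.20, and on Double replicate 4, at 9.50 against 9.88 to 9.90. Among the other primary response genes Klf6 was at 9.67 on Double replicate 2 against 10.14 to 10.17, and Ccn2 at 12.34 on Mek1gof replicate 1 against 11.86 to 11.91. Of these 7 arrays, Shp2lof replicate 4, Mek1gof replicate 2 and Double replicate 4 are those with atypical Xist and Eif2s3y levels.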

How the results depend on the processing

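The count of immediate early genes past the threshold was 0 in the reported fit of all 6 comparisons and became 1 under the alternatives named here. In Double against control it was 1 (Junb) with normexp at an offset of 50 and quantile normalization (-0.43, adjusted p = 0.0424), with neqc at an offset of 50 (adjusted p = 0.045), without normalization (-0.58, adjusted p = 0.0448) and on the series table's values after quantile normalization (adjusted p = 0.0429). It was 1 (Fos, 0.85, adjusted p = 0.0285) without the 3 atypical arrays, whose levels were known when they were chosen. In Double against Shp2lof it was 1 (Zfp36, -0.81, adjusted p = 0.0234) without normalization. The causes were not tested. Leaving out single arrays gave 0 to 0 in each comparison. With the replicate block the count stayed at 0 in all 6 comparisons, and the correlations of same-numbered arrays were -0.23 to 0.38, so the numbers were not taken as pairing the samples. Counts of correlated pairs were 0 under each alternative run.

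Over the 31 alternatives (30 for the interaction, for which there is no fit of only the groups compared) the calls among all genes ranged from 108 to 463 (reported 261) for Shp2lof, 15 to 193 (52) for Mek1gof and 136 to 652 (397) for Double against control. They ranged from 56 to 290 (99) for Double against Shp2lof, 1 to 192 (29) for Double against Mek1gof and 3 to 36 (9) for the interaction. Without normalization the median of all genes moved to -0.12 for Mek1gof and -0.11 for Double against control and -0.15 for Double against Shp2lof. The share of higher calls then went from 59% to 74.5%, 67.3% to 41.7%, 47.4% to 11.8%, 44.4% to 7.87% and 62.1% to 75% in Shp2lof, Mek1gof and Double against control and Double against Shp2lof and Mek1gof. Signal near the background limits what can be said of Fosb, Atf3, Ier2 and Btg2.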
